A study of Mus musculus with 6 samples.

Results

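A set of 27 genes was detected in every dCas9-KRAB library and was at or near 0 counts in every dCas9-KRAB-En5 library, without carrying the symbol of a named muscle gene family such as the myosins, troponins or actins. Members were chosen by the measured values of both groups among the 23231 genes with a count in at least 1 library: TPM, a read density scaled for gene length and depth, of 5 or more in all 3 dCas9-KRAB libraries, and 3 or fewer raw counts in all 3 dCas9-KRAB-En5 libraries. Of 42 genes within both limits, 15 were left out because their symbols belong to named muscle families, among them *Actc1*, *Mb*, *Myl2* and *Myod1*. The difference between the groups is therefore the choice itself, and it is given here as a description without a test.

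The libraries were poly(A) RNA-Seq of C2C12 cells, a mouse myoblast line, at day 5 in differentiation medium with 2% horse serum. Both groups carried lentiviral dCas9-KRAB, a cleavage-dead Cas9 joined to a repressor domain, and were selected with 2 µg/ml puromycin. The dCas9-KRAB cells (n = 3) had no guide against an enhancer, and the dCas9-KRAB-En5 cells (n = 3) also carried 2 sgRNAs directed at Myog-En5, an enhancer of *Myog*. *Myog* encodes myogenin, a transcription factor of terminal muscle differentiation. The sources name no cloning step and do not say whether the 3 libraries of a group came from separate cultures, so p-values measure the spread between these libraries.

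As background, C2C12 myoblasts leave the cell cycle in low serum, switch on *Myog*, fuse into myotubes and assemble sarcomeres. Myogenic factors bind E-boxes, short DNA motifs of the form CANNTG, often near MEF2 sites and other promoter elements. Much of the muscle program lies outside the myosin, troponin and actin families, in Z-disc adaptors, muscle isoforms of mitochondrial enzymes, membrane regulators of fusion and muscle-specific protein modifiers.

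Library totals were 40554323 to 73988425 counts in dCas9-KRAB and 31831093 to 40384720 in dCas9-KRAB-En5. dCas9-KRAB-En5 replicate 3 listed 13991 genes, against 17084 to 19395 in the other 5 libraries. *Myog* itself measured 1065, 1224 and 1118 TPM in dCas9-KRAB and 0.379, 0 and 0 TPM in dCas9-KRAB-En5 (log2 fold change -13.35 ± 1.24, adjusted p = 5.34e-05, edgeR's quasi-likelihood test). The 8 myoblast and myotube markers summed to 3742 to 8890 TPM in dCas9-KRAB and 8.36 to 14.8 TPM in dCas9-KRAB-En5, where *Myod1* and *Myf5* stood at 3 or fewer counts in every library. The label "myoblasts" was therefore not matched by its defining markers in the dCas9-KRAB-En5 libraries. Both groups are labelled C2C12, yet in both, dCas9-KRAB included, markers of another cell type were high. Macrophage markers, of which 16 of 17 were in the files, summed to 4258 to 4996 TPM in dCas9-KRAB and 5695 to 8918 TPM in dCas9-KRAB-En5. *Tyrobp*, the most abundant of them on average, measured 1727, 1048 and 1358 TPM and 1818, 1221 and 2547 TPM. The log2 fold changes of single markers pointed both ways. *Adgre1* was higher in dCas9-KRAB-En5 (log2 fold change 2.68 ± 0.54, adjusted p = 0.00706, edgeR). *Fcgr1* measured 97.3, 161 and 154 TPM in dCas9-KRAB and 53.6, 48.0 and 27.9 TPM in dCas9-KRAB-En5 (log2 fold change -1.84 ± 0.45, adjusted p = 0.0178, edgeR). It missed the adjusted p cutoff of 0.01 used here. *Cd14* measured 601, 604 and 699 TPM in dCas9-KRAB and 3398, 1369 and 525 TPM in dCas9-KRAB-En5. *C1qa*, *C1qb* and *C1qc* were below 1 TPM in all 6 libraries. Of those 16, 9 or 10 reached 10 TPM in each dCas9-KRAB library and 10 or 11 in each dCas9-KRAB-En5 library. Fibroblast markers, 7 of 8 in the files, summed to 69.2 to 199.9 TPM and 19.7 to 37.8 TPM. Among them *Col1a1* measured 9.73, 68.0 and 33.6 TPM in dCas9-KRAB and 2.52, 2.70 and 3.08 TPM in dCas9-KRAB-En5 (log2 fold change -3.65 ± 0.71, adjusted p = 0.0062, edgeR). *Col1a2* had a log2 fold change of -2.72 ± 0.72 (adjusted p = 0.0249, edgeR). *Postn* was at most 0.123 TPM in all 6 libraries, and the groups of *Col3a1* and *Dcn* overlapped. *Pdgfra* had a mean of 0.299 TPM in dCas9-KRAB and 0.607 TPM in dCas9-KRAB-En5. The part of these markers in the levels of the 27 genes, some of which are known from leukocytes (*Ms4a8a*, *Tspan32*), was not tested, and in bulk RNA fewer cells of a type and less RNA per cell cannot be told apart.

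The DNA just upstream of RefSeq transcription starts is shown first because it is a property of the members that the rule did not use. RefSeq promoters (GRCm38.p6, 250 bases before to 50 after the transcription start) were found for 17 of the 27 genes, with 21 promoters in all. The 150 bases before the start are printed below for 6 members that hold CAGCTG, an E-box with a GC core, and for *Smyd1*, whose promoter holds no CANNTG in that window. All run 5′ to 3′ on the strand of the gene, and capitals mark CANNTG and TATAAA in either orientation. CAGCTG and CAGGTG are each also a CANNTG. The RefSeq starts of *Apobec2* and *Smyd1* lie 202 and 59952 bases inside the GENCODE gene, so their stretches are within the gene coordinates given further on.
*Tmem182*, chr1:40805451-40805600, plus strand: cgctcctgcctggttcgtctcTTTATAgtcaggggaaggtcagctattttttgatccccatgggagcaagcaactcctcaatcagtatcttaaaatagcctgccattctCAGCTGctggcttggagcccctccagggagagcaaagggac
*Cox8b*, chr7:140900447-140900596, minus strand: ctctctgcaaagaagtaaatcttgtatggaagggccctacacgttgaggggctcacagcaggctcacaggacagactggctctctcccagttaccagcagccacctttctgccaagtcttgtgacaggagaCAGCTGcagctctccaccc
*Pdlim3*, chr8:45885337-45885486, plus strand: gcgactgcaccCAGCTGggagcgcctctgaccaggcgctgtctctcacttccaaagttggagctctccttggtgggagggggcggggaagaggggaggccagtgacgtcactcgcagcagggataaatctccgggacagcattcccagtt
*Apobec2*, chr17:48432729-48432878, minus strand: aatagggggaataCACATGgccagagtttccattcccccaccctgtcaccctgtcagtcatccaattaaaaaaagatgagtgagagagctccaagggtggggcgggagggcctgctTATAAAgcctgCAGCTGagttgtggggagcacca
*Cxcl9*, chr5:92328080-92328229, minus strand: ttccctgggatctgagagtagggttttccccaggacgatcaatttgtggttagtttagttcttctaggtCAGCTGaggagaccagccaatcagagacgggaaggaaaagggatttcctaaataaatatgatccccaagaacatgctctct
*Ms4a8a*, chr19:11081104-11081253, minus strand: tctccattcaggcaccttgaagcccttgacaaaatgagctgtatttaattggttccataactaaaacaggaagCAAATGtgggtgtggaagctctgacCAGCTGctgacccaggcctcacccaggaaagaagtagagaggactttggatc
*Smyd1*, chr6:71262282-71262431, minus strand: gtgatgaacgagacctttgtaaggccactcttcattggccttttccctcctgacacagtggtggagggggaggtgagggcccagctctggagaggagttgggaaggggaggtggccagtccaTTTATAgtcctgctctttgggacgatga

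CAGCTG was present in 9 of the 21 promoters (42.9%), each of a different gene: *Apobec2*, *BC051019*, *Cobl*, *Cox8b*, *Cxcl9*, *Ms4a8a*, *Pdlim3*, *Tmem182* and *Tspan32*. It was present in 16.3% of all 32851 promoters in the table. Any CANNTG was found in 19 of 21 member promoters (90.5%) and in 72.3% of all promoters, a motif so short that most windows hold one. CAGGTG, the other E-box core searched, was in 7 of 21 (33.3%) against 20.2%. TATAAA was in 8 of 21 (38.1%) against 13.6%, and these included *Tmem182*, *Apobec2*, *Cxcl9*, *Fhl1*, *Krt31* and *Smyd1*. The MEF2 motif (CTA, 4 of A or T, TA, then A or G) was found in 2 promoters of *Smim22*, or 9.5% of member promoters against 1.9% of all. These 2 promoters overlap and hold the same site. The CArG box (CC, 6 of A or T, GG), the site of serum response factor, was in 1 promoter of *Fhl1*, or 4.8% against 1.6%. With only the 250 bases before the start, CAGCTG was in 38.1% of member promoters and 13.0% of all promoters. Both strands were searched, promoters of 1 gene can overlap, and a match is a match of letters, not a measured binding site.

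**Figure D1:**
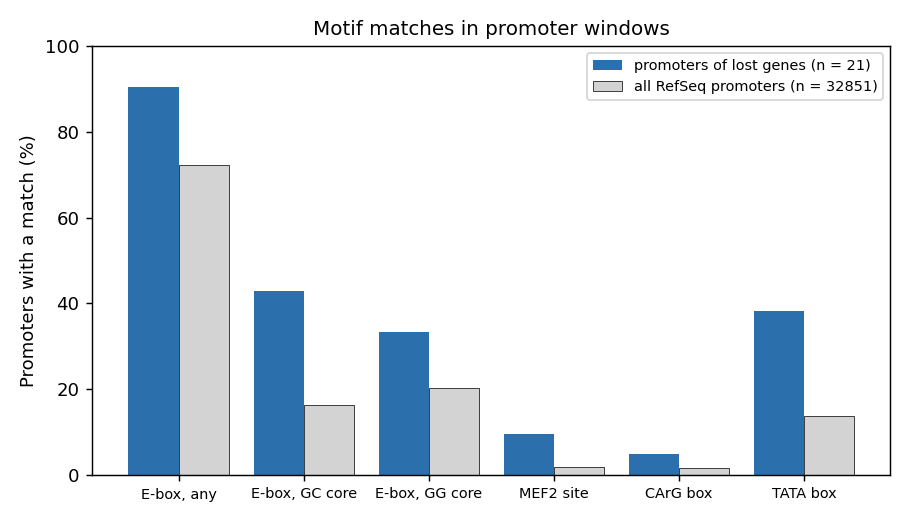
Share (%) of the 21 RefSeq promoters of lost genes (blue) and of all 32851 RefSeq promoters (grey) that hold each motif, in the window from 250 bases before to 50 after the start. The bars for the E-box with a GC core stand at 42.9% and 16.3%, and those for the TATA box at 38.1% and 13.6%.

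Across the set, the 27 genes summed to 739, 830 and 615 TPM in dCas9-KRAB replicates 1, 2 and 3. Their raw counts summed to 30075, 46096 and 43942 in those libraries and to 16, 14 and 1 in dCas9-KRAB-En5 replicates 1, 2 and 3. No count at all was recorded in dCas9-KRAB-En5 for 13 genes, and the other 14 had at least 1. Of 5379 genes with TPM of 5 or more in all dCas9-KRAB libraries, 0.781% met the count limit, which is the background from which the members and the 15 left-out family genes come. Without dCas9-KRAB-En5 replicate 3, the library that listed the fewest genes, the rule gave 30 genes, and since leaving out a library only loosens the rule these hold the 27 by construction. The reverse rule, with the groups exchanged, found 0 genes, but it was not equally strict. Its count limit fell on the dCas9-KRAB libraries, with higher totals, and its TPM limit on dCas9-KRAB-En5 replicate 3. *Ccl22*, with 2 counts in all in dCas9-KRAB, missed the reverse rule only through 0.827 TPM in that replicate.

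**Figure D2:**
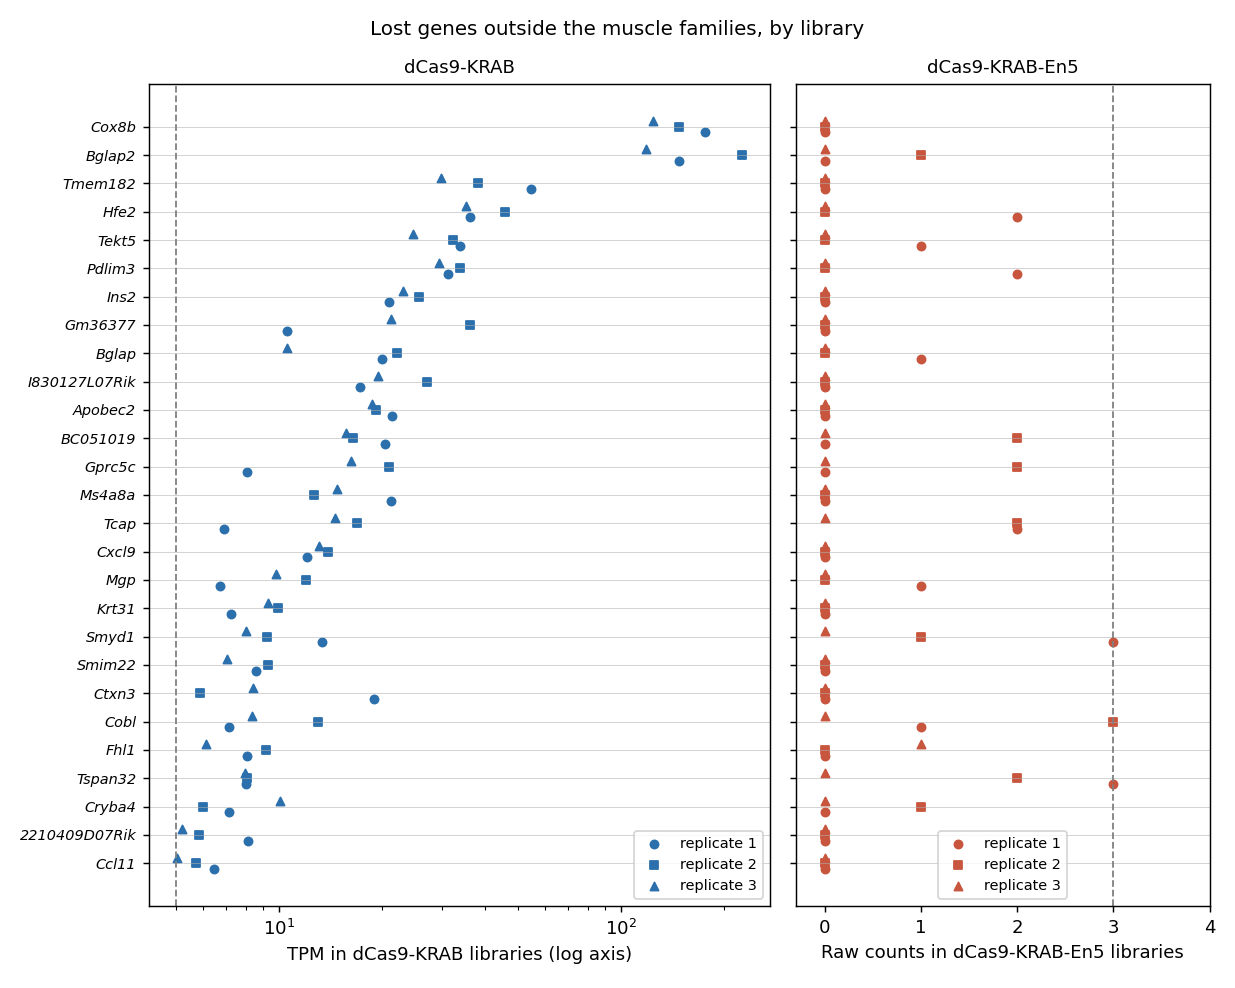
TPM of each of the 27 genes in the 3 dCas9-KRAB libraries (left, log axis) and raw counts in the 3 dCas9-KRAB-En5 libraries (right), with 1 symbol per replicate and the limits of the rule as dashed lines. The left panel runs from *Ccl11* at 5.04 TPM to *Bglap2* at 226 TPM, and 13 genes sit at 0 counts in all 3 libraries on the right.

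*Tmem182* encodes a transmembrane protein of skeletal muscle known to restrain myoblast fusion. It lies at chr1:40805601-40856887, plus strand (GRCm38; ENSMUSG00000079588). Its level in dCas9-KRAB replicates 1, 2 and 3 was 54.7, 38.1 and 29.8 TPM, from 4033, 3872 and 3624 counts, while no count was recorded in any dCas9-KRAB-En5 library. Every dCas9-KRAB library was thus high, and the groups were far apart by construction. Since 0 counts give only a limit, folds were computed against a floor of 3 counts in each dCas9-KRAB-En5 library, on CPM (counts scaled for depth) with TMM factors. *Tmem182* was at least 785-fold lower, the highest bound among the 13 genes without counts. Such a bound rises with the counts of a gene in dCas9-KRAB, so it does not rank the genes by how much RNA remained. *Hfe2*, which encodes hemojuvelin, a BMP co-receptor with a role in iron control, was the other member on the list of receptors and signalling proteins. It measured 36.1, 45.8 and 35.3 TPM in dCas9-KRAB and 2, 0 and 0 counts in dCas9-KRAB-En5. For genes with counts in dCas9-KRAB-En5 the ratio of the groups is given with an exact Poisson 95% interval, which covers counting error only. By that measure *Hfe2* (chr3:96525172-96529210, plus strand) was 2740.1-fold lower, with a counting interval of 759 to 22626.

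*Cox8b* was among the 2 genes of the set with a median over 100 TPM. It encodes the muscle and heart isoform of subunit 8 of cytochrome c oxidase, the last complex of the respiratory chain, and lies at chr7:140898945-140900446, minus strand. Its TPM was 176, 148 and 125 in dCas9-KRAB replicates 1 to 3, and all dCas9-KRAB-En5 libraries had 0 counts, so that it was at least 380.1-fold lower. Its widely expressed counterpart *Cox8a* was not lost. *Cox8a* measured 1057, 1532 and 1729 TPM in dCas9-KRAB and 1109.8, 1511 and 1443 TPM in dCas9-KRAB-En5, and the groups overlapped (log2 fold change -0.08 ± 0.53, adjusted p = 0.935).

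Z-disc and sarcomere adaptors formed the next group, with *Pdlim3*, *Tcap* and *Fhl1*. *Pdlim3*, an actinin-associated LIM protein of the Z-disc (chr8:45885461-45919548, plus strand), was even among the dCas9-KRAB libraries at 31.2, 33.9 and 29.4 TPM. With 2, 0 and 0 counts in dCas9-KRAB-En5, it was 5635-fold lower, with a counting interval of 1559.9 to 46529. This was the highest ratio among the 14 genes with counts, with an interval that overlaps that of *Bglap2* given below. *Tcap* encodes telethonin, which caps titin at the Z-disc (chr11:98383811-98384953, plus strand). It measured 6.92, 16.9 and 14.6 TPM in dCas9-KRAB, with replicate 1 lowest, and 2, 2 and 0 counts in dCas9-KRAB-En5. *Tcap* was 208-fold lower, with a counting interval of 81.3 to 764, the lowest ratio among the 14 genes with counts. *Fhl1*, a LIM-domain protein of striated muscle (chrX:56731787-56793346, plus strand), measured 8.05, 9.17 and 6.11 TPM and was the 1 gene with a count in dCas9-KRAB-En5 replicate 3. It was 1995-fold lower, with a counting interval of 358 to 78812.

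Muscle regulators of protein and nucleic acid modification were represented by *Apobec2* and *Smyd1*. *Apobec2*, a member of the cytidine deaminase family expressed in striated muscle (chr17:48419231-48432930, minus strand), measured 21.4, 19.3 and 18.7 TPM in dCas9-KRAB and 0 counts in every dCas9-KRAB-En5 library, or at least 223-fold lower. *Smyd1*, a muscle methyltransferase needed for myofibril assembly (chr6:71213940-71322233, minus strand), measured 13.3, 9.25 and 8.01 TPM against 3, 1 and 0 counts. That placed replicate 1 of dCas9-KRAB-En5 exactly at the limit of the rule, and *Smyd1* was 813-fold lower, with a counting interval of 318 to 2984. These 8 genes, from *Tmem182* to *Smyd1*, were the members found on the role lists of muscle genes; the remaining 19 were on none, and their groups below were made after their values were seen.

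The first of these groups holds vitamin K-dependent matrix proteins, best known from bone and cartilage. *Bglap2* and *Bglap* encode osteocalcin, a protein of mineralizing bone, and lie 4802 bp apart on the minus strand of chr3 (88377736-88378699 and 88383501-88384464). *Bglap2* measured 148, 226 and 119 TPM in dCas9-KRAB and 0, 1 and 0 counts in dCas9-KRAB-En5, and it had the highest single-library TPM of the set. It was 5284-fold lower, with a counting interval of 948 to 208714. *Bglap* measured 19.98, 22.1 and 10.6 TPM and 1, 0 and 0 counts, lowest in replicate 3 like its neighbour, and it was 746-fold lower, with a counting interval of 134 to 29467. The transcripts of the pair are nearly alike: 88.2% of the 50-base words of *Bglap2* and 56.6% of those of *Bglap* occur in another gene, so their separate levels are uncertain. *Mgp*, matrix Gla protein, an inhibitor of calcification (chr6:136872435-136875823, minus strand), measured 6.71, 12.0 and 9.80 TPM and 1, 0 and 0 counts, and was 776-fold lower, with a counting interval of 139 to 30669.

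Secreted signals made up a group of 3 genes, none of which had a count in dCas9-KRAB-En5. *Ins2* encodes insulin (chr7:142678656-142743381, minus strand) and measured 21.04, 25.7 and 23.1 TPM in dCas9-KRAB, a narrow range, so that it was at least 214-fold lower. Words of 50 bases shared with *Ins1* were under 0.5% of its transcript. Its GENCODE gene holds 6 exon intervals with 1312 exon bases across the span given, and which exons gave the reads was not examined. *Cxcl9*, a chemokine induced by interferon gamma that attracts T cells (chr5:92321347-92328079, minus strand), measured 12.1, 13.9 and 13.1 TPM and was at least 276-fold lower. *Ccl11*, eotaxin, a chemokine for eosinophils (chr11:82057823-82062955, plus strand), was the member closest to the TPM limit with 6.44, 5.73 and 5.04 TPM from 189, 232 and 244 counts. It was at least 43.7-fold lower.

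Other chemokine genes lie beside both of these. On chr11, *Ccl7*, *Ccl2* and *Ccl8*, monocyte-attracting chemokines, lie 10298, 20370 and 52230 bp from *Ccl11* on the same strand, and all 3 were lower in dCas9-KRAB-En5. *Ccl8* was the most abundant, with 554, 361 and 395 TPM in dCas9-KRAB and 2.03, 0.693 and 7.27 TPM in dCas9-KRAB-En5 (log2 fold change -6.66 ± 1.06, adjusted p = 0.00201). *Ccl2* measured 77.2, 134 and 147 TPM and 1.16, 0.259 and 1.08 TPM (log2 fold change -7.07 ± 0.81, adjusted p = 2.22e-04). *Ccl7* measured 97.8, 102 and 164 TPM and 4.89, 0.663 and 4.64 TPM (log2 fold change -5.03 ± 0.85, adjusted p = 0.00288). In each of the 3 the groups did not overlap. Over all 14378 genes tested, 19.7% had every dCas9-KRAB library above every dCas9-KRAB-En5 library. On chr5, *Cxcl10* and *Cxcl11*, the other chemokines induced by interferon gamma, lie 18559 and 31465 bp from *Cxcl9*. *Cxcl10* measured 3.34, 107 and 57.8 TPM and 1.53, 2.85 and 1.09 TPM (log2 fold change -5.10 ± 0.95, adjusted p = 0.00502). *Cxcl11* measured 1.93, 8.65 and 11.6 TPM and 1.08, 1.35 and 0.334 TPM (log2 fold change -3.32 ± 0.67, adjusted p = 0.00744). Both were low in dCas9-KRAB replicate 1, where *Cxcl9* was not. All adjusted p-values in this paragraph are from edgeR's quasi-likelihood test over 14378 genes, in which 4.67% of genes were called lower and 1.52% higher. A call needed an adjusted p no larger than 0.01 and a log2 fold change of 1 or more in size. Leaving out 1 library took *Ccl7* and *Ccl8* (dCas9-KRAB replicate 1), *Cxcl10* (dCas9-KRAB replicate 2) and *Cxcl11* (dCas9-KRAB replicates 2 and 3, dCas9-KRAB-En5 replicates 1 and 2) outside the cutoff, to adjusted p-values of at most 0.0352 (edgeR).

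**Figure D3:**
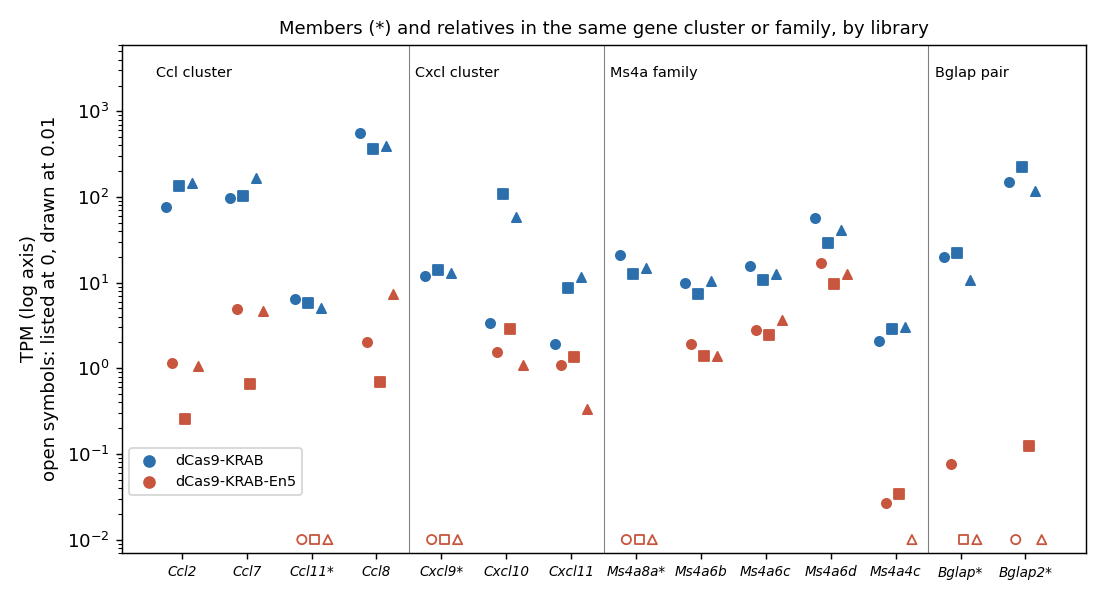
TPM (log axis) of members, marked with an asterisk, and of genes in the same cluster or family, in 3 dCas9-KRAB (blue) and 3 dCas9-KRAB-En5 (red) libraries, with circles, squares and triangles for replicates 1, 2 and 3. Open symbols are libraries listed at 0, drawn at 0.01. *Ccl11*, *Cxcl9* and *Ms4a8a* are at 0 in all 3 dCas9-KRAB-En5 libraries, within the limit that chose them. The groups of *Ccl2*, *Ccl7*, *Ccl8*, *Cxcl10* and *Cxcl11* do not overlap, as for 19.7% of all 14378 genes tested in that direction.

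Membrane proteins numbered 5. *Gprc5c*, an orphan class C G protein-coupled receptor (chr11:114851152-114872617, plus strand), measured 8.04, 20.9 and 16.2 TPM, with replicate 1 lowest, and 0, 2 and 0 counts in dCas9-KRAB-En5. It was 2697-fold lower, with a counting interval of 747 to 22268. *Ms4a8a*, of the MS4A membrane family that is best known from leukocytes (chr19:11067471-11081102, minus strand), had the opposite order among dCas9-KRAB libraries at 21.2, 12.6 and 14.8 TPM, with replicate 1 highest. It had 0 counts in dCas9-KRAB-En5 and was at least 208-fold lower. *Smim22*, a small integral membrane protein (chr16:5007288-5008309, plus strand), measured 8.54, 9.29 and 7.05 TPM and was at least 32.5-fold lower. *Ctxn3*, a cortexin (chr18:57468516-57478133, plus strand), was uneven at 18.9, 5.88 and 8.38 TPM and was at least 128-fold lower. *Tspan32*, a tetraspanin of blood cells (chr7:143005046-143019644, plus strand), was singled out after its values were seen, as the most even member at 8.02, 8.05 and 7.94 TPM. Its 3, 2 and 0 counts in dCas9-KRAB-En5 made it 697-fold lower, with a counting interval of 298 to 2145. *Tspan32os* overlaps 271 of its exon bases on the other strand.

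Structural proteins of other tissues formed a group of 4. *Tekt5*, a tektin of sperm flagella (chr16:10357948-10395490, minus strand), was the highest of these with 33.8, 32.4 and 24.7 TPM and 1, 0 and 0 counts, and was 3803-fold lower, with a counting interval of 682 to 150192. *Krt31*, a hair keratin (chr11:100046646-100050551, minus strand), measured 7.25, 9.92 and 9.28 TPM and no count in dCas9-KRAB-En5, or at least 97.5-fold lower. Of its 50-base words, 28.1% occur in other keratin genes, mainly *Krt34*, *Krt33a* and *Krt33b*, so its count is uncertain. *Cobl*, an actin filament nucleator (chr11:12236608-12464960, minus strand), measured 7.14, 13.0 and 8.33 TPM and 1, 3 and 0 counts, with replicate 2 highest in both groups, and was 1320.3-fold lower, with a counting interval of 516 to 4846. *Cryba4*, a crystallin of the eye lens (chr5:112246493-112252518, minus strand), measured 7.12, 5.99 and 10.0 TPM and 0, 1 and 0 counts, and was 458-fold lower, with a counting interval of 82.2 to 18079.6. It was the 1 gene of the set that was highest in dCas9-KRAB replicate 3.

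The last group holds noncoding and uncharacterized genes. *Gm36377*, a lincRNA (chr13:70651005-70655787, minus strand), had the highest ratio of its highest to its lowest dCas9-KRAB library, at 10.6, 36.3 and 21.3 TPM, and was at least 117-fold lower. It overlaps 197 exon bases of *D030007L05Rik* on the other strand. *I830127L07Rik*, annotated as a pseudogene (chr15:75131377-75135128, minus strand), measured 17.3, 27.1 and 19.5 TPM and was at least 118-fold lower. It shares 9.58% of its 50-base words with *Ly6a*, *Ly6i* and other genes. *BC051019*, a protein-coding gene without a known function here (chr7:109712181-109723850, minus strand), measured 20.4, 16.5 and 15.7 TPM and 0, 2 and 0 counts, and was 1269-fold lower, with a counting interval of 351 to 10477. *2210409D07Rik*, an antisense transcript (chr18:57632079-57638585, minus strand), measured 8.13, 5.83 and 5.22 TPM with about as few counts as any member, 101, 100 and 107, and was at least 20.7-fold lower. Whether counting used the strand was not given in the sources used here.

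**Figure D4:**
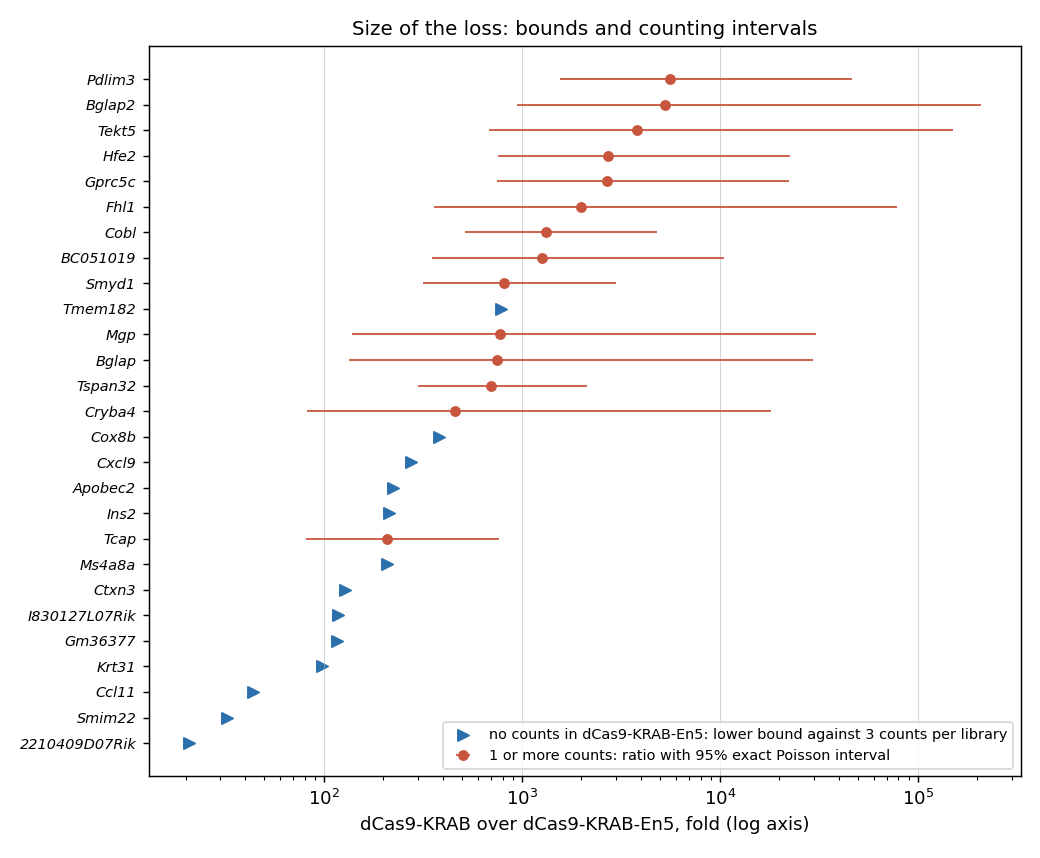
Fold of dCas9-KRAB over dCas9-KRAB-En5 for each gene on a log axis. Blue arrowheads are lower bounds for the 13 genes without counts in dCas9-KRAB-En5, from 20.7 to 785, and red points with bars are ratios with 95% exact Poisson intervals for the 14 genes with counts, from 208 to 5635.

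Over the 13 genes without counts the bounds ran from 20.7-fold for *2210409D07Rik* to 785-fold for *Tmem182*, with a median of 128-fold. Over the 14 genes with counts the ratios ran from 208-fold for *Tcap* to 5635-fold for *Pdlim3*. Bounds and ratios cannot be compared: a bound assumes 3 counts in each dCas9-KRAB-En5 library, and a ratio uses the counts found. *Cox8b*, with 5733 counts against 0, thus had a bound of 380, and *Tekt5*, with 5842 counts against 1, a ratio of 3803. Counts in dCas9-KRAB-En5 were unevenly placed: 9 members had a count in replicate 1, 8 in replicate 2 and 1 in replicate 3, the library with the lowest total. On raw totals, the floor of 3 counts corresponds to 0.0743 to 0.0942 CPM in the dCas9-KRAB-En5 libraries. The bounds used totals scaled with TMM factors, 46611798, 43159334 and 23225248 for replicates 1, 2 and 3, so their floor was highest in replicate 3.

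The members just inside and just outside the limits show how the set was bounded. *Ccl11*, *2210409D07Rik* and *Ctxn3* had the lowest minimum TPM, at 5.04, 5.22 and 5.88, and *Tspan32*, *Cobl* and *Smyd1* had 3 counts in 1 library. Just under the TPM limit were *AW112010* at 4.996, 6.91 and 8.75 TPM and *Ramp2* at 4.86, 15.8 and 10.1 TPM, both in replicate order. *Ramp2* had 0 counts in all dCas9-KRAB-En5 libraries, and *AW112010* had at most 2. Just over the count limit were *Ankrd2*, *C1qtnf3* and *Ctrb1*, each far above most members in dCas9-KRAB. *Ankrd2*, a stretch-responsive ankyrin repeat protein of muscle, had 428, 365 and 425 TPM in dCas9-KRAB and 4, 0 and 0 counts in dCas9-KRAB-En5. *C1qtnf3*, a secreted protein of the C1q and TNF family, had 80.7, 42.4 and 47.0 TPM and 4, 0 and 0 counts. *Ctrb1*, the pancreatic protease precursor chymotrypsinogen B, had 229, 395 and 384 TPM and 5, 0 and 0 counts. In all, 9 further genes had a minimum of 4 to under 5 TPM within the count limit, and 2 exceeded that limit by 1 count.

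Variation among the dCas9-KRAB libraries was the measure of the members that the rule left free above 5 TPM. The median coefficient of variation was 24.0% over the 27 genes and 26.3% over the 5379 genes with TPM of 5 or more in all 3 libraries. The highest over the lowest library had a median ratio of 1.56 in the set and 1.67 in those genes. It ran from 1.01 for *Tspan32* to 3.43 for *Gm36377*, and 5 members exceeded 2-fold: *Gm36377*, *Ctxn3*, *Gprc5c*, *Tcap* and *Bglap*. Replicate 1 was highest for 10 members, replicate 2 for 16 and replicate 3 for 1, while over the 5379 genes replicate 1 was highest for 34.2%, replicate 2 for 52.0% and replicate 3 for 13.7%. Members differed in the direction of this variation. *Tmem182*, *Smyd1*, *Ctxn3*, *Ms4a8a* and *Cox8b* were highest in replicate 1, whereas *Tcap*, *Gprc5c*, *Gm36377* and *Cobl* were lowest there. The median level of the members was 14.8 TPM, against 29.2 TPM for the 5379 genes, and 11 members had a median under 10 TPM.

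Counterparts and relatives of the members gave a comparison that the rule did not fix. The list of widely expressed counterparts held 7 genes tested, of which 1 was lower and 0 were higher, against 4.67% and 1.52% of all 14378 genes tested with edgeR's quasi-likelihood test. The gene that fell was *Pdlim1*, a relative of *Pdlim3* that also binds actinin, with 12.0, 21.7 and 17.7 TPM in dCas9-KRAB and 0.368, 0.213 and 0.191 TPM in dCas9-KRAB-En5 (log2 fold change -6.16 ± 0.57, adjusted p = 4.79e-05). *Pdlim2* measured 23.1, 47.2 and 43.2 TPM and 37.8, 41.3 and 37.7 TPM, with overlapping groups (log2 fold change 0.03 ± 0.49, adjusted p = 0.976). The relatives of *Smyd1* overlapped too, with *Smyd2* at 19.4, 24.7 and 24.3 TPM and 19.8, 30.5 and 7.78 TPM (log2 fold change -0.56 ± 0.41, adjusted p = 0.37). *Smyd3* measured 3.07, 3.21 and 3.16 TPM and 3.72, 5.20 and 2.77 TPM (log2 fold change 0.15 ± 0.42, adjusted p = 0.835). None of these 3 passed the cutoffs, and dCas9-KRAB-En5 replicate 3 was the lowest of its group for all of them. Of the relatives of *Apobec2*, *Apobec1*, an RNA-editing cytidine deaminase, measured 35.1, 26.4 and 21.7 TPM and 61.5, 49.8 and 14.2 TPM (log2 fold change 0.26 ± 0.44, adjusted p = 0.721). *Apobec3*, a restriction factor for retroviruses, measured 2.998, 5.57 and 3.59 TPM and 2.07, 3.19 and 0.938 TPM (log2 fold change -1.24 ± 0.43, adjusted p = 0.0705). A p that misses the cutoff does not show that the other 6 counterparts, *Cox8a* included, were equal in the groups.

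A wider list of gene-family relatives, written after the data were seen, held 98 genes, of which 62 could be tested. Of these 17 were lower and 3 higher, against 4.67% and 1.52% of all 14378 genes tested. Their median log2 fold change was -1.80, beside 0.08 over all genes tested. Of the 98, 33 (33.7%) had 3 or fewer counts in all dCas9-KRAB-En5 libraries, as did 25.1% of all 23231 genes. The count of lower relatives was 9 without dCas9-KRAB replicate 1 or 2, and 31 without dCas9-KRAB-En5 replicate 3. Among the 5 tested relatives of *Pdlim3*, 3 fell: *Pdlim1*, *Pdlim4* and *Pdlim7*. Of 2 tested relatives of *Fhl1*, 0 were called. The more abundant of them, *Fhl3*, measured 75.2, 229 and 212 TPM and 161, 203 and 168 TPM, with overlapping groups. *Pdlim4* measured 34.2, 113 and 98.6 TPM and 6.31, 5.34 and 8.19 TPM (log2 fold change -3.52 ± 0.66, adjusted p = 0.00496, edgeR). Among the 14 tested tetraspanins, 3 were called lower, *Tspan15*, *Tspan7* and *Tspan9*, and 0 higher. *Tspan7* was at 0 counts in all dCas9-KRAB-En5 libraries. *Tspan13* went the other way without passing the cutoffs (log2 fold change 2.13 ± 0.48, adjusted p = 0.0117, edgeR). *Tspan15* measured 21.1, 19.1 and 19.8 TPM and 0.144, 0.130 and 0.235 TPM (log2 fold change -6.78 ± 0.71, adjusted p = 1.14e-04, edgeR). *Rgma*, a relative of *Hfe2* and likewise a BMP co-receptor, measured 6.43, 16.8 and 11.1 TPM and 0.315, 0.245 and 0.741 TPM (log2 fold change -4.44 ± 0.79, adjusted p = 0.00375, edgeR). *Rgmb*, the other relative of *Hfe2*, was not called, at 2.79, 4.96 and 2.32 TPM and 4.24, 5.40 and 0.860 TPM with overlapping groups. In the MS4A family *Ms4a4c* and *Ms4a6b* fell, and *Ms4a6d*, at 57.2, 28.7 and 40.6 TPM in dCas9-KRAB and 16.7, 9.59 and 12.5 TPM in dCas9-KRAB-En5, did not pass the cutoffs although the groups did not overlap (log2 fold change -1.75 ± 0.54, adjusted p = 0.0442, edgeR). *Pdlim4*, *Pdlim7* and *Ms4a6b* each lost the call when any library but dCas9-KRAB-En5 replicate 3 was left out, *Rgma* without dCas9-KRAB replicate 1 or 2, and *Tspan9* without dCas9-KRAB replicate 2. *Ms4a6d* was called lower without dCas9-KRAB-En5 replicate 3 (adjusted p = 0.00496, edgeR). Groups apart in the direction of *Ms4a6d* were found for 19.7% of all 14378 genes tested.

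Chemokine relatives moved both ways. *Ccl3*, a chemokine of activated macrophages, rose from 105, 288 and 279.9 TPM in dCas9-KRAB to 2706, 1579 and 809.7 TPM in dCas9-KRAB-En5 (log2 fold change 2.69 ± 0.55, adjusted p = 0.00803, edgeR). *Cxcl2*, a neutrophil chemokine, rose from 0.249, 1.11 and 0.961 TPM to 21.6, 14.3 and 3.53 TPM (log2 fold change 3.74 ± 0.69, adjusted p = 0.00464, edgeR). *Ccl22* measured 12.2, 7.26 and 0.827 TPM in dCas9-KRAB-En5 and had 2 counts in all in dCas9-KRAB. In all 3 genes dCas9-KRAB-En5 replicate 3 was the lowest of its group, and the groups did not overlap. The share of all genes apart in this upward direction was not counted. Others fell. *Ccl5*, a T-cell chemokine, fell from 93.4, 435 and 292 TPM to 40.1, 43.9 and 33.1 TPM (log2 fold change -2.85 ± 0.58, adjusted p = 0.00789, edgeR). *Cxcl12*, a stromal chemokine for progenitor cells, fell from 1.77, 3.87 and 2.13 TPM to 0.0115, 0 and 0.0374 TPM (log2 fold change -7.03 ± 1.04, adjusted p = 0.00116, edgeR). Of 10 tested relatives of *Ccl11*, 4 were lower and 2 higher, and of 8 tested relatives of *Cxcl9*, 3 were lower and 1 higher. The shares over all 14378 genes tested were 4.67% lower and 1.52% higher. *Ccl3*, *Ccl5* and *Cxcl2* lost their calls without dCas9-KRAB replicate 1, 2 or 3, *Ccl3* and *Ccl5* also without dCas9-KRAB-En5 replicate 1, *Ccl5* also without dCas9-KRAB-En5 replicate 2, and *Cxcl12* without dCas9-KRAB replicate 1, with adjusted p-values of at most 0.0451 (edgeR).

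**Figure D5:**
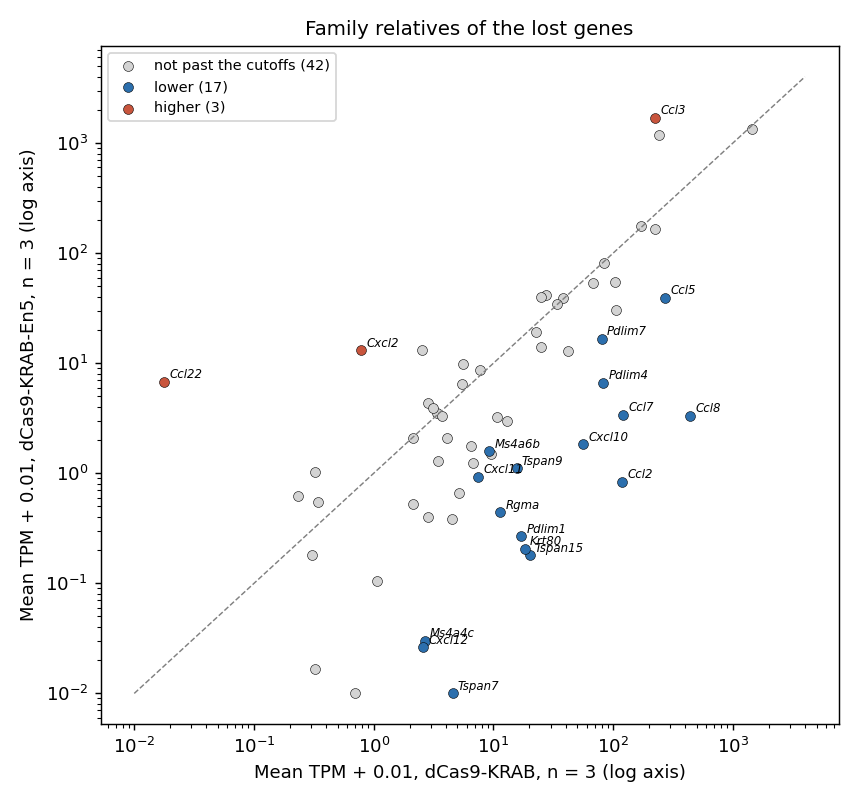
Mean TPM + 0.01 of the 62 tested relatives in dCas9-KRAB (x axis, n = 3) and dCas9-KRAB-En5 (y axis, n = 3), both on log axes, with the dashed line at equal levels. Blue points are the 17 genes called lower, red points the 3 called higher (*Ccl3*, *Ccl22*, *Cxcl2*), and grey points those not past the cutoffs.

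Genes near the members on the chromosome were counted as well. Within 100 kb of a member lay 156 genes of the files, and 89 that were not members were tested, with 12 lower (13.5%) and 2 higher (2.25%), against 4.67% and 1.52% of all 14378 genes tested. The share of higher genes is thus near the background. Their median log2 fold change was -0.55, beside 0.08 over all genes tested. The count of lower neighbours was 5 without dCas9-KRAB replicate 1 and 27 without dCas9-KRAB-En5 replicate 3. The 12 lower genes lay near 9 of the 27 members. They include *Ccl2*, *Ccl7*, *Ccl8*, *Cxcl10* and *Cxcl11*, which were also counted among the lower relatives, so the 2 counts are not separate. *Ly6c1* and *Ly6c2*, surface proteins of monocytes and endothelium, lie 82547 and 19407 bp from *I830127L07Rik* on the same strand. *Ly6c1* measured 893, 1138 and 1091 TPM and 7.21, 4.11 and 20.3 TPM (log2 fold change -6.27 ± 0.96, adjusted p = 0.00151, edgeR). *Sorbs2*, an adaptor of the Z-disc region, lies 57555 bp from *Pdlim3* and measured 0.414, 0.786 and 0.243 TPM and 0.00659, 0.00412 and 0 TPM (log2 fold change -7.28 ± 0.89, adjusted p = 3.38e-04, edgeR). *Emp2*, a tetraspan membrane protein, lies 43980 bp from *Tekt5* and measured 11.9, 18.2 and 12.2 TPM and 2.59, 2.56 and 0.794 TPM (log2 fold change -3.11 ± 0.44, adjusted p = 8.71e-04, edgeR). *Slc9a2* near *Tmem182*, *AW112010* near *Ms4a8a* and *Ccdc192* near *Ctxn3* and *2210409D07Rik* were the others besides the chemokines. The 2 neighbours that rose were *Txnip*, 28747 bp from *Hfe2*, and *Urah*, 60979 bp from *Cox8b*. *Txnip*, an inhibitor of thioredoxin and glucose uptake, measured 154, 133 and 148.7 TPM and 1862, 1599 and 497 TPM (log2 fold change 2.86 ± 0.50, adjusted p = 0.00373, edgeR). *Urah*, an enzyme of urate breakdown, measured 0.129, 0.0374 and 0.125 TPM and 18.2, 8.89 and 7.32 TPM (log2 fold change 6.66 ± 0.79, adjusted p = 2.81e-04, edgeR). *Txnip* lost its call without dCas9-KRAB replicate 1, 2 or 3, and *Ly6c1* without dCas9-KRAB replicate 1.

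The role lists, written with earlier results of these data known, were counted without the 8 members that they hold. Over all 14378 genes tested, 4.67% were lower and 1.52% higher. In the sarcomere and cytoskeleton list 21 of 31 tested genes were lower and 0 higher, with a median log2 fold change of -5.70. Alongside *Pdlim3*, *Tcap* and *Fhl1* these included *Csrp3*, a Z-disc LIM protein, at 46.3, 44.8 and 44.3 TPM and 0.0884, 0 and 0 TPM (log2 fold change -10.69 ± 0.91, adjusted p = 2.95e-05, edgeR). They also included *Unc45b*, the myosin chaperone that works with *Smyd1*, at 4.17, 11.3 and 8.02 TPM and 0.0315, 0 and 0 TPM (log2 fold change -9.55 ± 0.95, adjusted p = 8.50e-05, edgeR). In the triad, calcium and ion channel list, which holds no member, 14 of 22 were lower and 1 higher, with a median of -4.82. In the energy list, 11 of 34 were lower and 0 higher, with a median of -1.45. Without dCas9-KRAB replicate 1 the 3 counts of lower genes were 11, 8 and 6, and without dCas9-KRAB-En5 replicate 3 the energy list had 17. *Cox6a2*, like *Cox8b* a muscle isoform of cytochrome c oxidase, measured 198, 237 and 215 TPM and 3.89, 9.45 and 3.08 TPM (log2 fold change -5.55 ± 0.52, adjusted p = 5.45e-05, edgeR).

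In the transcription and RNA list 5 of 21 were lower and 0 higher, with a median of -0.93. The shares over all genes tested, for this and the next 2 lists, were 4.67% lower and 1.52% higher. *Vgll2*, a cofactor of TEAD factors in muscle, measured 2.68, 10.8 and 6.31 TPM in dCas9-KRAB and 0 counts in every dCas9-KRAB-En5 library. In the receptor and signalling list 4 of 25 were lower and 2 higher, with a median of -2.001, and in the neuromuscular junction list 3 of 10 were lower and 0 higher, with a median of -2.71. In a fit with a replicate block, where 6.79% of all genes tested were lower and 3.94% higher, the neuromuscular junction count was 5. In the same order, the counts of lower genes in these 3 lists were 3, 2 and 1 without dCas9-KRAB replicate 1 or without replicate 2, and 11, 12 and 6 without dCas9-KRAB-En5 replicate 3. The receptor count was also 2 without dCas9-KRAB replicate 3 and without dCas9-KRAB-En5 replicate 1 or 2. Differences between lists were not tested, and the lists were written with earlier results of these data known.

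By position, 5 members lie on chr11, 4 on chr7 and 3 on chr3. By annotation, 24 of the 27 (background 88.0% of the 5379 genes) are protein coding.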

How the data were processed

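Per the labels and the study's methods, the authors aligned poly(A) reads to GRCm38/mm10 with HISAT2 (version 2.2.1) and counted them per gene with featureCounts. The deposited files give raw counts and TPM for each gene of each library. TPM were made by the authors from those counts and gene length. The annotation release, the strand setting and the handling of reads that match several genes were not given in the sources used here. All 6 libraries were used, and 0 further columns of sample values were left unused. A gene listed in only some libraries was set to 0 in the others.

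Groups were taken from the sample titles. The members and the lists were chosen with earlier results of these data known; counterparts and role lists were written from general knowledge, and relatives, neighbours and the groups of members on no list were chosen after their values were seen. Named genes were all 27 members, with values for up to 4 members per role group by median TPM, the 3 members with the lowest minimum TPM, the 3 genes just outside each limit (1 is not reported here), and counterparts that were called or among the 6 most abundant. Identifiers were matched to GENCODE M21 for symbols and positions (23186 of 23231).

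Counts were tested with edgeR 4.0.16 (R 4.3.3) over 14378 genes: filterByExpr (minimum count 10, minimum total 15), TMM, quasi-likelihood F-test on condition, and Benjamini-Hochberg adjustment over all genes tested. A call needed an adjusted p of at most 0.01 and a log2 fold change of at least 1 in size, the cutoffs of the study. Values in the text after ± are standard errors of the log2 fold change. The code was tested on simulated data. Alternatives were DESeq2 1.42.0, other size factors, no low-count filter, a replicate block and leaving out each library in turn.

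Replicate numbers are shared by the groups in the sample titles. Deviations from the group means correlated across genes at 0.266, 0.216 and 0.293 for libraries with the same number. They correlated at -0.344 to -0.054 for libraries with different numbers, partly because deviations within a group sum to 0. The numbers were thus treated as a possible pairing, with a replicate block as an alternative fit. Adjusted p-values, standard errors and calls in the text are from the fit on condition only, unless another fit is named.

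Shared 50-base words were counted between GENCODE M21 transcripts. Promoters were those of RefSeq (GRCm38.p6); no promoter was matched for *2210409D07Rik*, *Bglap2*, *Ccl11*, *Ctxn3*, *Gprc5c*, *Hfe2*, *I830127L07Rik*, *Ins2*, *Mgp* and *Tcap*.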

Additional observations from a re-analysis of the deposited data

How the results depend on the processing

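With the limits of the rule moved, the number of genes outside the muscle families was 63 at 2 TPM, 14 at 10 TPM, 13 at 0 counts and 27 to 38 when 1 library was left out, a change that can only add genes. Depth sets what the bounds can say: with a floor of 3 counts over the group, the median bound was 424-fold and that of *Tmem182* 2591-fold, and leaving out 1 library gave 113 to 168 and 625 to 1028. The number of genes called lower over all 14378 (671) was 1423 with DESeq2, 1194 with no low-count filter, and 216 to 2134 with 1 library left out, the highest without dCas9-KRAB-En5 replicate 3. The number called higher (219) was 967 with DESeq2, 70 with total counts only, 1004 with no filter, and 6 to 1787 with 1 library left out. Lower relatives (17) numbered 27 with no filter and 9 to 31 with 1 library left out; higher relatives (3) numbered 6 with DESeq2, 6 with no filter, and 0 to 5 with 1 library left out. Lower neighbours (12) numbered 20 with DESeq2 and 5 to 27 with 1 library left out. The cause of these shifts was not tested. The counts of counterparts called, 1 lower and 0 higher, were the same in every alternative run, and motif shares stayed within their counting intervals.

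In the fit with a replicate block, 976 genes were lower and 567 higher, so the number called higher rose from 219. Lower relatives numbered 23 and lower neighbours 17 with the block. Among results described here the neuromuscular junction count was the other to move by over 1.5 times. No gene given with its fold change lost its call. The sign of *Pdlim2* turned to -0.0259 with the block and to -0.0271 with total counts only, and with 1 library left out it ran from -0.55 to 0.24. Signs also turned, with 1 library left out, for *Cox8a* (-0.77 to 0.19), *Apobec1* (-0.0222 to 0.45) and *Smyd3* (-0.14 to 0.30); none of these genes was called in any of these fits. Among 26 of the other named genes past the cutoffs, 15 lost the call with at least 1 library left out. *Ccl3* and *Ccl5* lost it with DESeq2 size factors, and *Cxcl10*, *Cxcl11* and *Cxcl2* with total counts only. No direction reversed among these 26 genes.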
